A study of Thermothelomyces thermophilus ATCC 42464 with 6 samples.

Results

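The genes described here encode 5 hydrolases that take part in the stepwise breakdown of cellulose by Thermothelomyces thermophilus (Myceliophthora thermophila), a heat-loving filamentous fungus. They were taken by locus tag from the deposited table of gene FPKM values (fragments per kilobase of transcript, scaled to 1000000 mapped fragments, with 1000000 written M below) and make up 5 of its 2228 genes. They are cbh1 (MYCTH_109566, glycoside hydrolase family GH7), cbh2 (MYCTH_66729, GH6), Mtegl2 (MYCTH_86753, GH5), eg1 (MYCTH_111372, GH7) and gh1-1 (MYCTH_115968, GH1). The RefSeq gene table carries only locus tags for these loci, so their names and families, which follow usage for this fungus, have no annotation behind them here.

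Expression in the wild type was set against that in a strain from which Mtclr-2 had been deleted. Each strain had 3 libraries. Mycelium of either strain was first grown on glucose, washed, and kept for 48 h on 2% Avicel, a microcrystalline cellulose. The labels name no parent strain and no number of deletion clones, and do not say if separate cultures were used for the replicates, so errors and p-values below cover the spread between libraries only, which may be technical. The locus recalled as Mtclr-2, MYCTH_38704, was not analysed here, so its own transcript could not be used to check the deletion label. Whole mycelium was extracted, so a lower level in every cell and fewer cells carrying a transcript cannot be told apart.

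Cellulose is a crystalline polymer of glucose, and fungi take it apart with enzymes of complementary action. Endoglucanases cut inside the chains and open new ends, cellobiohydrolases move along the chains from those ends and release the disaccharide cellobiose, and β-glucosidases split cellobiose into glucose. CLR-2 is a zinc cluster transcription factor, known from Neurospora crassa as a main activator of cellulase genes when cellulose is the carbon source. The series asks which genes its counterpart MtCLR-2 controls, and Mtegl2 is named in its title.

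The table is a selected set, in which every gene with values above 0 in both strains differed at least 2.00-fold between strain means. Of its genes, 1323 were lower in the deletion strain. Across the 2106 genes that averaged 1 FPKM or more, limma on log2(FPKM + 1) called 100% at an adjusted p under 0.05, with 60.7% lower and 39.3% higher. The median log2 change over the genes tested was -0.99 (deletion minus wild type). Correlations of log2(FPKM + 1) were 0.994 to 0.997 between libraries of the same strain and 0.813 to 0.817 between strains. Sequencing depth is not given with FPKM, but the low values fit roughly 13.9 to 16.6 M fragments per wild-type library and 13.1 to 16.9 M per deletion library, or a whole multiple of these. The selection of the table decides that a listed gene differs between strains by at least its minimum fold. It does not decide which listed gene fell further than another, or how the set was made up.

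All 5 hydrolase genes were lower in the strain without Mtclr-2, and they differed widely in how much transcript remained. The endoglucanase gene eg1 kept 1.38% of its wild-type FPKM, Mtegl2 17.0%, the β-glucosidase gene gh1-1 20.9%, cbh1 28.6% and cbh2 37.8%. In each of the 5 the highest deletion library stood below the lowest wild-type library, as it did for 59.1% of all listed genes. Each passed limma's test as a fall, against 60.7% of the genes tested. Their median log2 change was -2.21. The median of -0.99 over all genes tested pools lower and higher genes, so it does not measure a typical fall. In a table selected for a difference, passing the test and not overlapping say nothing about these genes in particular.

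**Figure D1:**
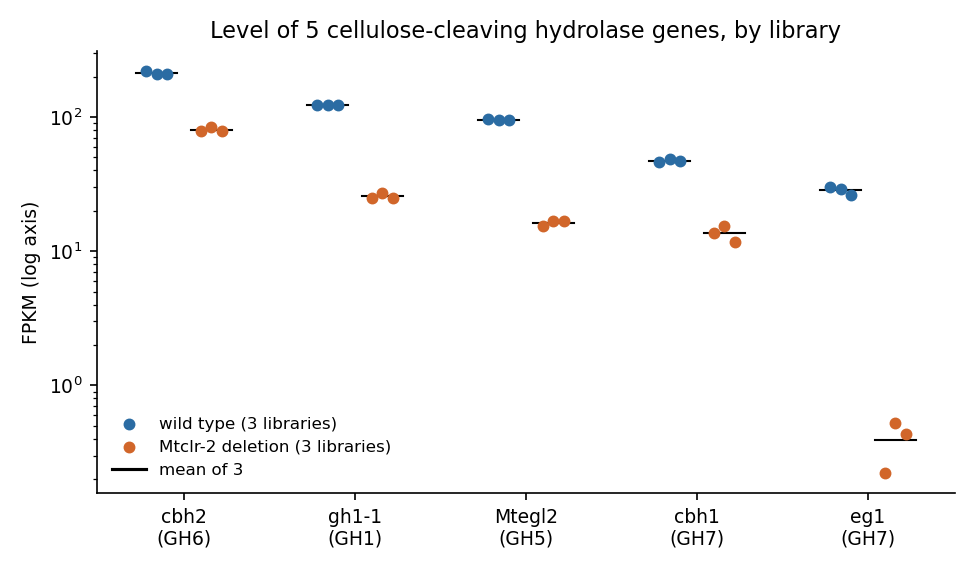
FPKM (log axis) of the 5 hydrolase genes in each of the 6 libraries, with points for libraries, blue for the wild type and orange for the Mtclr-2 deletion, and a line at the mean of 3. The genes stand in the same order of mean level in both strains, from cbh2 at 213.1 and 80.5 FPKM to eg1 at 28.6 and 0.394 FPKM.

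The cellobiohydrolases kept the most transcript. The gene cbh2 encodes an enzyme of family GH6, whose cellobiohydrolases work from the non-reducing end of the chain. It stood at 221.2, 208.2 and 209.9 FPKM in wild-type libraries 1 to 3 and at 79.4, 83.8 and 78.2 FPKM in deletion libraries 1 to 3. It was the most abundant of the 5 in every library, and its strains were far apart relative to the spread within each. The means were 213.1 ± 7.09 and 80.5 ± 2.96 FPKM (SD, n = 3), and the log2 change was -1.39 ± 0.04 (SE; adjusted p = 1.62e-10, limma). With 37.8% ± 1.08 remaining (SE from the spread of both strains), cbh2 lay closest of the 5 to the fold at which the table was selected.

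The gene cbh1 encodes a GH7 enzyme of the kind that moves along the chain from its reducing end. Its level was 46.5, 49.0 and 46.9 FPKM in the wild-type libraries and 13.6, 15.4 and 11.7 FPKM in the deletion libraries. Its mean fell from 47.5 ± 1.37 to 13.6 ± 1.87 FPKM (SD, n = 3), a log2 change of -1.74 ± 0.09 (SE; adjusted p = 1.13e-08, limma). The deletion libraries were spread more widely for cbh1 than for the other genes above 10 FPKM. Its coefficient of variation there was 13.8%, against 3.68% for cbh2, 4.30% for Mtegl2 and 4.48% for gh1-1, and against a median of 5.69% and a 95th percentile of 16.6% over the 937 listed genes at 10 to 100 FPKM in that strain. Counting error alone, from an estimated 334 to 458 fragments per deletion library, would give about 5.04%.

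At the transcript level cbh2 exceeded cbh1 in every library. The ratio of cbh2 to cbh1 was 4.76, 4.25 and 4.48 in the wild type, compared with 5.85, 5.43 and 6.68 in the deletion strain. The mean ratio was 4.49 ± 0.26 and 5.99 ± 0.64 (SD, n = 3), and the strains did not overlap. The cellobiohydrolase with the higher level was therefore also the less reduced of the pair, with cbh2 making up 81.8% ± 0.852 of their summed FPKM in the wild type, compared with 85.6% ± 1.28 in the deletion strain.

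The endoglucanase genes lost most relative to their wild-type levels, and they lost unequally. Mtegl2, whose GH5 product cuts within cellulose chains, stood at 97.0, 94.7 and 95.9 FPKM in the wild type and at 15.5, 16.7 and 16.8 FPKM in the deletion strain. Both strains were tight for this gene, with coefficients of variation of 1.202% and 4.30%. Counting error alone, from the estimated fragments, would give about 1.87% and 4.65%. The means were 95.9 ± 1.15 and 16.3 ± 0.702 FPKM (SD, n = 3), with a log2 change of -2.48 ± 0.05 (SE; adjusted p = 1.37e-11, limma) and 17.0% ± 0.439 (SE) remaining.

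The gene eg1 encodes a GH7 endoglucanase, from the same family as cbh1. Its level was 30.3, 29.0 and 26.5 FPKM in the wild-type libraries and 0.222, 0.522 and 0.437 FPKM in the deletion libraries. No other of the 5 came near this loss. The mean went from 28.6 ± 1.94 to 0.394 ± 0.155 FPKM (SD, n = 3), and the log2 change was -4.41 ± 0.12 (SE; adjusted p = 8.56e-11, limma), which on the log2(FPKM + 1) scale understates the fall of a gene this low (-5.91 with 0.1 in place of 1 added to each value, -2.64 with 5). Multiplied by its annotated length and the estimated depths, eg1 in deletion libraries 1 to 3 came to about 6, 11 and 10 fragments. These 27 fragments compare with 2121 in the wild type. They leave 1.33% remaining, with a 95% interval of 0.876% to 1.94% (exact binomial, counting error only). Counting alone would spread the deletion libraries by about 34.1%, near their observed coefficient of variation of 39.3%.

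As a result of these unequal falls, the summed transcript of Mtegl2 and eg1 came almost wholly from Mtegl2 in the deletion strain. Other endoglucanase genes were not searched for, so this does not describe all endoglucanase transcripts. The ratio of Mtegl2 to eg1 was 3.20, 3.27 and 3.63 in the wild type, compared with 69.9, 32.0 and 38.4 in the deletion strain. Mtegl2 supplied 77.0% ± 1.17 of the summed FPKM of both genes in the wild type, compared with 97.7% ± 0.832 in the deletion strain (SD, n = 3), with no overlap. The ratio in the deletion strain rests on only 6 to 11 estimated fragments of eg1 per library.

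The β-glucosidase gene gh1-1 fell to an intermediate extent. GH1 enzymes of this kind split cellobiose and short cellodextrins, and so complete the path to glucose. Its level was 122.7, 122.2 and 123.6 FPKM in the wild-type libraries and 24.97, 27.0 and 25.1 FPKM in the deletion libraries. Wild-type libraries differed by less for gh1-1 than for any other of the 5, with a coefficient of variation of 0.586%. Counting error alone, from the estimated fragments, would give about 1.56%, so little can be read from this closeness. The means were 122.8 ± 0.720 and 25.7 ± 1.15 FPKM (SD, n = 3), the log2 change was -2.21 ± 0.05 (SE; adjusted p = 1.60e-11, limma), and 20.9% ± 0.545 (SE) remained. The locus recalled as Mtbgl1, MYCTH_66804, a β-glucosidase gene of another family and the other gene of the series title, was not analysed here.

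**Figure D2:**
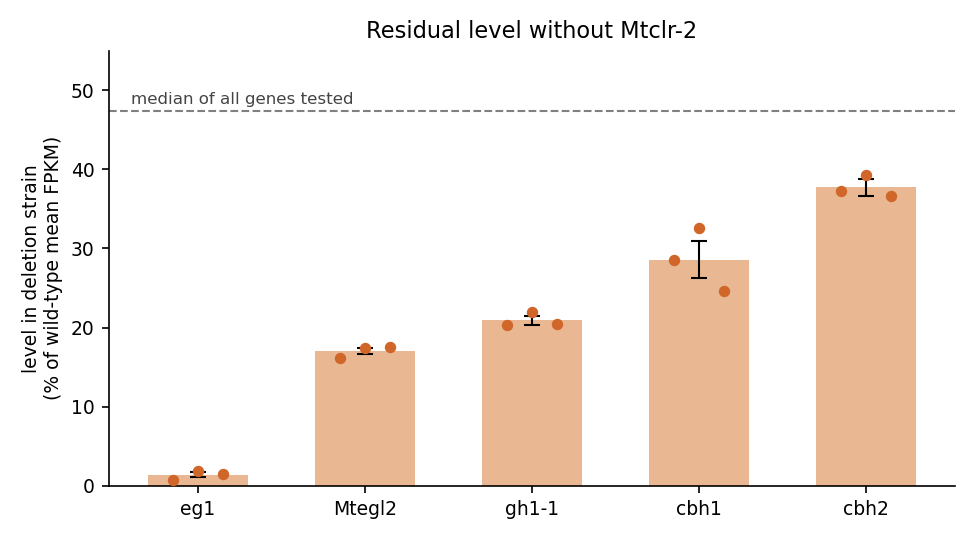
Level in the deletion strain as a percent of the wild-type mean FPKM, with bars for the mean of 3 deletion libraries, error bars for the SE from the spread of both strains, points for single deletion libraries and a dashed line at the median over all genes tested, 47.4%. The bars run from 1.38% for eg1 to 37.8% for cbh2, and all single libraries of the 5 lie below the line. That median pools lower and higher genes, and listed genes that fell did so at least 2.00-fold. Lying below the line was therefore nearly fixed by the selection of the table.

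Roles were summed over these 5 genes only, and other genes of the same roles were not searched for. Summed by role, the cellobiohydrolases went from 260.6 ± 6.19 to 94.0 ± 4.77 FPKM (SD, n = 3), which left 36.1% ± 1.17 (SE). The endoglucanases went from 124.4 ± 2.51 to 16.7 ± 0.850 FPKM, which left 13.4% ± 0.424. The 5 genes together went from 507.9 ± 8.49 to 136.5 ± 6.14 FPKM, a 3.72-fold fall that left 26.9% ± 0.744. Of the 371.4 FPKM lost, cbh2 alone accounted for 35.7%, although it fell least in relative terms, while eg1, which fell most, accounted for 7.59%. The gene gh1-1 accounted for 26.2%, Mtegl2 for 21.4% and cbh1 for 9.13%. How large these falls are depends on scaling. Scaling the libraries to equal sums over the table left 27.5% of the summed level of the 5, against 26.9% as deposited. Median-of-ratios factors are less sure here, because every listed gene with values above 0 in both strains differed at least 2.00-fold. Dividing by median-of-ratios factors, which take the median gene of this selected table as unchanged, shifts the median log2 change up by 0.94, makes 46.0% of the 1532 genes called lower in place of 60.7%, and leaves 54.4% of the summed level of the 5 (76.4% for cbh2, 57.9% for cbh1, 42.3% for gh1-1, 34.5% for Mtegl2 and 2.79% for eg1).

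Ratios between genes of the same library do not depend on that scaling. The falls of the 5 were compared in all 10 pairs as the log2 ratio of their FPKM, and in each pair the libraries of the strains did not overlap (exact permutation test, two-sided p = 0.1 in each, 0.1 after Benjamini-Hochberg adjustment over the 10 pairs). This is the smallest p that 3 against 3 libraries can give, so no pair could pass 0.05. No share of other listed pairs without overlap is given here, so the lack of overlap is not read as particular to these genes. The size of the difference and its error therefore carry the comparison. Against cbh2, eg1 fell further by 4.86 ± 0.36 on the log2 scale (SE), and against cbh1, its relative in GH7, by 4.45 ± 0.38. Against gh1-1 it fell further by 4.01 ± 0.36, and against Mtegl2, the other endoglucanase gene, by 3.71 ± 0.35. With 1 FPKM added to each value these 4 differences were 1.93 to 3.02. The remaining differences were smaller. Mtegl2 fell further than cbh2 by 1.15 ± 0.05 and further than cbh1 by 0.74 ± 0.13. The gene gh1-1 fell further than cbh2 by 0.85 ± 0.03 and further than cbh1 by 0.44 ± 0.09. The smallest differences were those between cbh1 and cbh2, 0.41 ± 0.10, and between Mtegl2 and gh1-1, 0.30 ± 0.04.

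**Figure D3:**
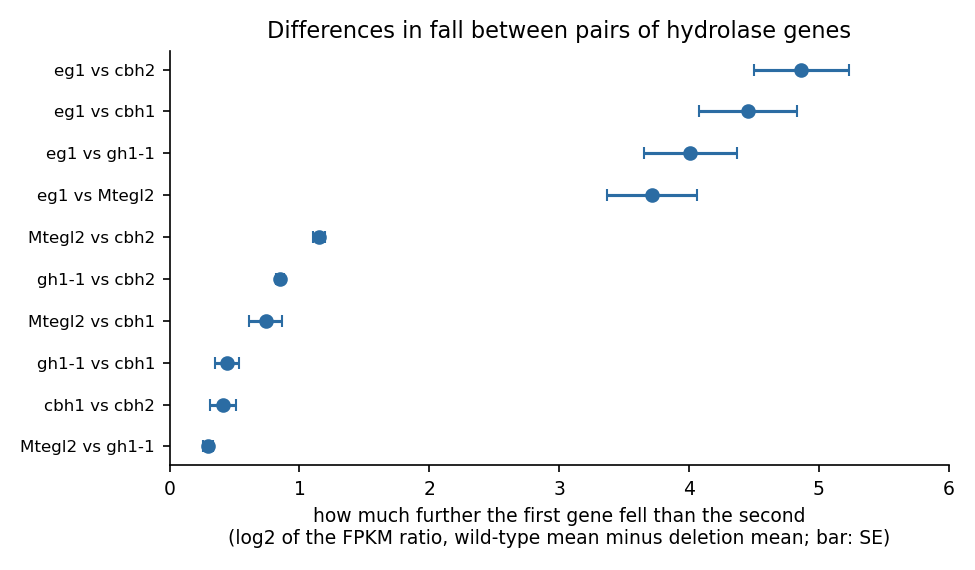
Difference in fall for each of the 10 pairs of hydrolase genes, as the log2 ratio of FPKM in the wild type minus that in the deletion strain, with the gene that fell further named first and bars for the SE over 3 libraries per strain. The 4 pairs that include eg1 lie between 3.71 and 4.86, and the other 6 between 0.30 and 1.15.

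The make-up of the set shifted toward the cellobiohydrolases. In the wild type they held 51.7%, 51.1% and 51.1% of the summed FPKM of the 5, and in the deletion strain 69.5%, 69.2% and 68.0%. The share of the endoglucanases went from 24.5% ± 0.136 to 12.3% ± 0.661 (SD, n = 3) and that of gh1-1 from 24.2% ± 0.450 to 18.8% ± 0.153. For these 3 roles the strains did not overlap, and the two-sided exact permutation test gave p = 0.1, the lowest it can reach. No other sets of listed genes are set beside this, so the lack of overlap is not read as particular to these roles. Within the cellobiohydrolases the gain belonged to cbh2, which went from 42.0% ± 0.702 to 59.0% ± 0.510 of the set. The share of cbh1 was 8.98%, 9.75% and 9.33% in the wild type, compared with 10.2%, 10.8% and 8.85% in the deletion strain. These overlapped, and the difference of 0.57 percentage points did not exceed the spread between libraries (exact permutation p = 0.5). This difference is not settled by these libraries, being 0.15 points without deletion replicate 2 and 1.11 without deletion replicate 3. As a share of the 4 genes other than cbh2, cbh1 gained 8.08 points (exact permutation p = 0.1). Within the 5, the ratio of cellobiohydrolase to endoglucanase transcripts was 2.10, 2.08 and 2.10 in the wild type, compared with 5.90, 5.77 and 5.22 in the deletion strain. The ratio of endoglucanase to gh1-1 transcripts was near parity in the wild type, at 1.01 ± 0.023, and 0.651 ± 0.030 in the deletion strain (SD, n = 3).

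**Figure D4:**
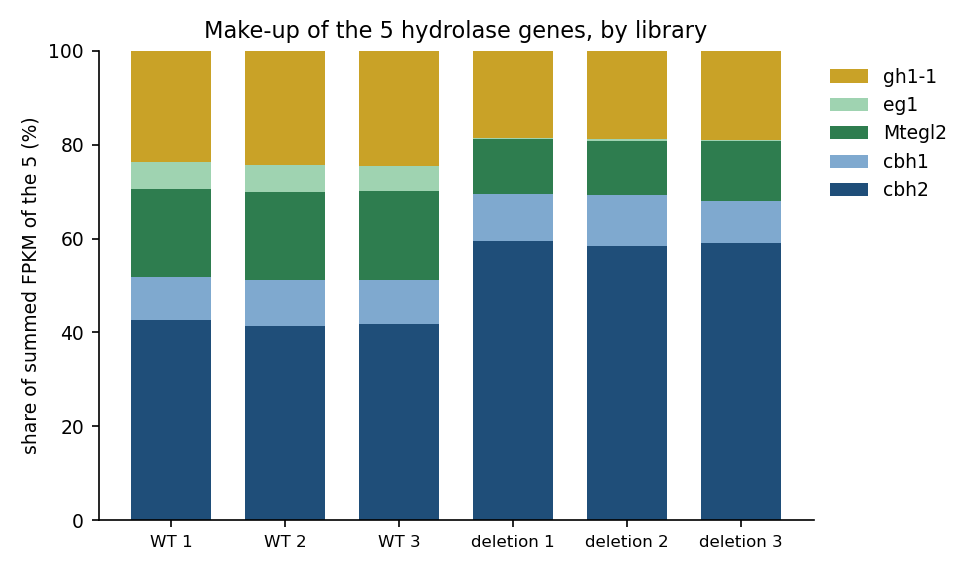
Share of each gene in the summed FPKM of the 5 hydrolases (percent), one stacked bar per library. The share of cbh2 is 41.4% to 42.7% in the wild type and 58.4% to 59.4% in the deletion strain, and that of eg1 drops from 5.26% or more to 0.364% or less.

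The genes kept their order of mean level in both strains, cbh2 above gh1-1, Mtegl2, cbh1 and eg1. In the wild type all neighbours in that order were well apart. In the deletion strain the closest neighbours were Mtegl2 and cbh1, where the lowest Mtegl2 library, at 15.5 FPKM, stood just above the highest cbh1 library, at 15.4 FPKM. The spread among replicates was not tied to the same library in each strain. In the deletion strain replicate 2 was highest for 4 of the 5 genes, and in the wild type replicate 1 was highest for 3.

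Within the table the 5 were mid-ranking to abundant transcripts in the wild type. Ranked by mean FPKM among the 2228 listed genes, cbh2 was at position 189, gh1-1 at 308, Mtegl2 at 387, cbh1 at 695 and eg1 at 957. In the deletion strain the positions were 422 for cbh2, 838 for gh1-1, 1072 for Mtegl2, 1159 for cbh1 and 2172 for eg1. Ranked by the ratio of means among all 1323 lower genes, eg1 had position 11, Mtegl2 78, gh1-1 110, cbh1 234 and cbh2 491. Among the 1032 of these that reached 10 FPKM in either strain, a level eg1 reached only in the wild type, the positions were 3, 34, 53, 135 and 345 in the same order. The summed share of the 5 in the FPKM of the table was 0.256%, 0.248% and 0.246% in the wild type, compared with 0.068%, 0.073% and 0.066% in the deletion strain.

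**Figure D5:**
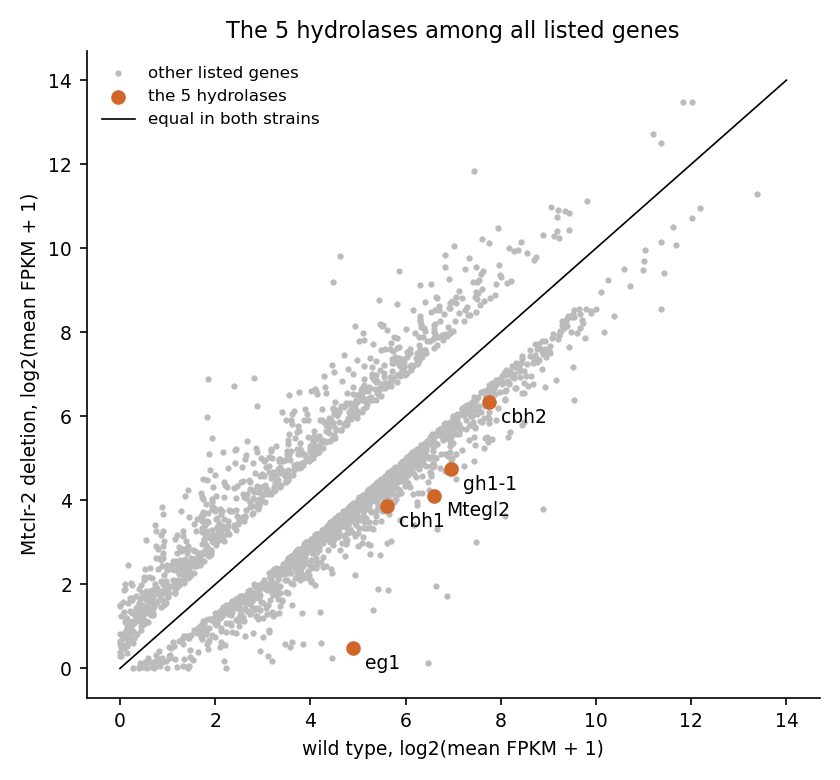
Mean level in the deletion strain against that in the wild type, both as log2(mean FPKM + 1), for all 2228 listed genes (grey) with the 5 hydrolases in orange and a line of equal levels. The band along that line is empty because the table was selected for a difference. Of the 5, cbh2 lies closest to the lower edge of the band, with a 2.65-fold fall in mean FPKM. The gene cbh1 lies further below that edge, with a 3.50-fold fall, and eg1 lies far below it.

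Among other genes of cellulose use, the 4 listed loci recalled as AA9 lytic polysaccharide monooxygenases, which use copper to cleave cellulose by oxidation, all fell (limma, 4 of 4 tested, against 60.7% of genes), with a median log2 change of -2.05 and 3.05-fold to 37.1-fold lower mean FPKM. The AA9 and transporter loci given here were recalled and not found by a search, so neither group stands for its whole family. The AA9 locus MYCTH_112089 kept 2.70% of its wild-type level, between eg1 and the other hydrolases. The remaining AA9 loci of these 4 kept 18.3% to 32.8%, within the range from Mtegl2 to cbh2. The 2 listed loci recalled as cellodextrin transporters, which carry cellobiose and longer sugars into the cell, rose instead (limma, against 39.3% of genes), 2.21-fold for MYCTH_114107 and 2.69-fold for MYCTH_43941, the latter from a level under 1 FPKM.

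Listed genes with a pattern like each hydrolase were sought by the Euclidean distance of log2(FPKM + 1) over the 6 libraries, which takes level and change together. These are descriptions of likeness, and the loci carry no product name in the tables used. The closest match of all was that of gh1-1 with MYCTH_80276, at a distance of 0.18. MYCTH_80276 stood at 130.1, 127.6 and 132.7 FPKM in the wild type and at 25.7, 28.3 and 26.4 FPKM in the deletion strain, leaving 20.6%. For cbh2 the nearest gene was MYCTH_2313766 (distance 0.24, 209.6 ± 7.83 and 80.2 ± 4.59 FPKM), and for cbh1 it was MYCTH_84133 (0.26, 45.7 ± 0.434 and 14.9 ± 1.68 FPKM). For Mtegl2 it was MYCTH_2118654 (0.35, 89.4 ± 4.29 and 18.1 ± 0.817 FPKM). The table held few genes like eg1. Its nearest was MYCTH_84297 at 0.85, which went from 21.0 ± 0.633 to 0.182 ± 0.170 FPKM, followed by MYCTH_55803 at 1.38 and MYCTH_2022110 at 1.78. For the other 4 hydrolases the third nearest gene was still within 0.60, namely MYCTH_2311879 for cbh1, MYCTH_2307306 for cbh2, MYCTH_2303364 for Mtegl2 and MYCTH_2301051 for gh1-1. The second nearest were MYCTH_2303043, MYCTH_2300637, MYCTH_2130787 and MYCTH_86076 in the same order.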

How the data were processed

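Poly(A) RNA of 6 libraries, 3 per strain, was sequenced. Values are FPKM as deposited by the authors, and replicates were not pooled. The submitters' processing notes name HISAT2, RSEM, StringTie 1.3.1, DESeq2 and fastp 0.18.0, without roles. The sources used here give no settings, no build and no rule for the selection of the listed genes. All 2228 listed genes matched the RefSeq gene table (ASM22609v1), 2226 by locus tag and 2 by symbol. It was used for gene order and lengths only.

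Genes averaging 1 FPKM or more were tested with limma 3.58.1 (R 4.3.3), which fitted log2(FPKM + 1) on strain with a mean-variance trend, and with Benjamini-Hochberg adjustment at 0.05. The test was checked on simulated data in which most genes were unchanged. This table was selected for a difference, so that check does not bear on the calls made here. Shares and ratios were compared by an exact permutation test (scipy 1.17.1). Depth was estimated as the lowest value, between 5 and 40 M (1 M is 1000000 fragments), that put nearly the most low values (at least 90% of the best count) within 0.03 of a whole fragment. In the wild type 45 of 81, 34 of 69 and 31 of 70 values did so, and in the deletion strain 17 of 40, 12 of 34 and 16 of 34, so depths and fragment numbers are rough, and the latter too high for genes with introns.

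The named genes were the 5 hydrolases, the 3 listed genes nearest to each, their neighbours in gene order, and a list of pathway loci. Hydrolases, lists and tests were chosen with earlier results of these data known. Names of loci were recalled from published work. Protein relatives and promoter motifs, also planned, were not analysed here. Alternatives were other pseudocounts, filters, scalings and summaries, a replicate block, and leaving out each library.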

Additional observations from a re-analysis of the deposited data

How the results depend on the processing

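The log2 changes of the 5 genes stayed lower and called in 70 of 70 alternative limma values, which a table selected for a difference nearly guarantees. Of 222 alternative residual levels, shares and differences between genes, 220 kept their direction. Their permutation tests could not pass 0.05 under any setting. The share of gh1-1 within the set, as a gene and as a role, reversed from -5.36 to 4.24 percentage points when cbh2 was left out of the sum, because that sum no longer holds the gene that fell least. The same change moved the share of cbh1 from 0.57 to 8.08 points, that of Mtegl2 from -6.90 to -3.32 and that of eg1 from -5.34 to -8.99, and that of the cellobiohydrolases, then cbh1 alone, from 17.6 to 8.08. With median-of-ratios factors 705 genes were called lower in place of 1279. Leaving out each library in turn, 26.2% to 27.3% of the summed level of the 5 remained, 1.15% to 1.68% of eg1 and 26.6% to 30.6% of cbh1, and the change in the share of cbh1 was 0.15 to 1.11 points. The replicate block left 2106 genes called and changed no call. The replicate numbers were taken as names only, since same-numbered libraries deviated together at r = -0.005, 0.031 and 0.082. Depth limits eg1 most, with 6 to 11 estimated fragments per deletion library.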

Other observations

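The surroundings of the 5 genes in the RefSeq gene order differed. Of the 3 protein-coding genes on each side, 5 of 6 were in the table for eg1, 3 of 6 for Mtegl2, 2 of 6 for gh1-1, 1 of 6 for cbh1 and 0 of 6 for cbh2, where listed genes equal 24.5% of all protein-coding genes. The plan named only the genes directly before and after each hydrolase, and the wider window of 3 on each side was not planned. Neighbours that the table does not list were not used here.

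Around eg1 all 5 listed neighbours had a lower mean in the deletion strain, as did 59.4% of all listed genes, and 1 of the 5 was too low to be tested. The gene directly after it, MYCTH_80276, is the one whose values lay closest to gh1-1, with 20.6% remaining against 1.38% for eg1. MYCTH_2093133, which lies 3 positions before eg1, went from 15.2 ± 1.36 to 3.17 ± 0.366 FPKM (SD, n = 3), and MYCTH_2305389 beside it from 4.40 ± 0.744 to 0.782 ± 0.378 FPKM. Directly before eg1, MYCTH_2305390 was at or under 1.09 FPKM in all 6 libraries, with strains that overlapped.

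Near Mtegl2 the directions were mixed, with 2 of the 3 listed neighbours higher in the deletion strain. MYCTH_2295555, directly after it, rose from 3.47 ± 0.332 to 9.49 ± 0.880 FPKM (SD, n = 3; limma adjusted p = 1.29e-06). MYCTH_2053048, which lies 2 genes before Mtegl2, rose from 0.159 ± 0.075 to 2.21 ± 0.867 FPKM (limma adjusted p = 4.46e-05). Chosen after its values were seen, MYCTH_41714, which lies 3 genes before Mtegl2, stood at 100.4, 101.8 and 98.4 FPKM in the wild type and at 8.59, 10.1 and 8.47 FPKM in the deletion strain. Its wild-type level was close to that of Mtegl2 and its fall larger, with 9.02% remaining. The gene directly after gh1-1, MYCTH_5082, went from 120.4 ± 7.37 to 34.4 ± 2.69 FPKM, leaving 28.5%. No cause was tested for any of these patterns, and reads shared between abutting genes were not examined.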
